A study of Mus musculus with 16 samples.

Results

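Translation factors are the proteins that bring ribosomes to messenger RNA, find the start codon and carry the ribosome along the coding sequence. The 64 genes described here were all protein-coding genes of the count table whose symbols begin with Eif1 to Eif6 or with Eef1 or Eef2, without the Eif2ak genes, which encode kinases of eIF2. They were 64 of 54532 genes in the table and of 22046 protein-coding genes, and this rule used gene symbols and gene type alone. By symbol, 51 begin with Eif and 13 with Eef, and 6 of the 13 encode a kinase or methyltransferases of elongation factors. Bulk RNA-seq was performed on 16 samples of C57BL/6J splenic CD8+ T cells taken as naive cells and kept under repeated activation for 4 days in vitro to give antigen-experienced cells with TCF1, the transcription factor of stem-like T cells. All samples had this genotype and received low-dose IL-2 (85 U/ml) for 4 h. The 4 groups, with 4 replicates each, were cells with IL-2 alone (unstimulated), cells with IL-2 after 1 h with 100 ng/ml PGE2, a prostaglandin that signals through the receptors EP2 and EP4 and cyclic AMP, cells with IL-2 and beads coated with antibodies to CD3 and CD28 at 1 bead per cell (stimulated), and cells with PGE2 followed by IL-2 and beads.

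Initiation starts at the cap of the messenger RNA, where eIF4E, the scaffold eIF4G and the helicase eIF4A form the eIF4F complex, while the small ribosomal subunit arrives with eIF3, eIF1, eIF1A, eIF5 and the initiator tRNA held by eIF2. After the start codon is found, eIF2 leaves with GDP and is recharged by its exchange factor eIF2B, and eIF5B joins the large subunit. During elongation, eEF1A delivers aminoacyl-tRNA, the eEF1B subunits recharge eEF1A, and eEF2 moves the ribosome by 1 codon. T cells at rest translate little and raise protein synthesis when their antigen receptor and CD28 are engaged, with mTORC1 and MYC among the regulators.

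Libraries held 22678254 to 42950763 counts (median 30211840.5), of which the 64 genes took 3.06% to 3.74% and Eef1a1 alone 1.05% to 1.31%. Replicates varied more than counting noise, as chi-square per degree of freedom within groups was 7.81 to 51.3. Of 6 CD8 T cell markers (Cd3e, Cd3g, Cd8a, Cd8b1, Tcf7 and Cd28), all 6 were above 1 CPM (counts relative to the TMM-scaled total of the library), and their summed level was 3373 to 4278 CPM in unstimulated, 2965 to 3830 in unstimulated PGE2-treated, 2622 to 2704 in stimulated and 2309 to 2495 in stimulated PGE2-treated samples. Of 4 B cell markers, 2 were above 1 CPM, and their sum was 11.9 to 20.3, 10.1 to 16.2, 4.92 to 11.1 and 4.40 to 9.18 CPM in the same order. Myeloid markers summed to at most 6.57 CPM, CD4 T cell markers to at most 9.52, erythroid markers to at most 0.821 and NK markers to at most 0.0999. The B and CD8 marker sums were lower with stimulation, without overlap between the groups. With PGE2 the CD8 marker sum was lower without overlap in stimulated cells and lay lower with overlap in unstimulated cells. The part of these marker levels in the results below was not tested. RNA from the whole population was measured, so that fewer cells of a kind and less RNA per cell cannot be told apart. All values are relative levels within a sample that depend on the scaling, and not amounts per cell. Whether the replicates came from separate cultures or animals was not given, so the p-values measure the spread between these samples.

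First, the levels of the 64 genes were compared with one another on the FPKM scale of the authors, which divides by gene length. Across samples, FPKM values also depend on a scaling that the sources used here do not describe. Eef1a1 and Eef2 led the order in all 4 groups. Eef1a1, which delivers aminoacyl-tRNA, stood at 4579 ± 31.3 FPKM (SD, n = 4) in unstimulated cells and at 4532 ± 187 in stimulated cells, and Eef2, the translocase, at 1535 ± 76.4 and 1412 ± 46.4. The next genes in unstimulated cells were Eef1b2 with 396 ± 20.1 and Eif5a with 390.0 ± 20.3 FPKM, followed by Eif3h with 336 ± 30.5 and Eef1g with 331 ± 21. Neighbours within each of these pairs did not differ beyond their SD. In stimulated cells, Eif5a, whose product helps ribosomes through stretches that stall, had the rank 3 with 944 ± 169 FPKM. The cap-binding protein gene Eif4e was ranked 40 of 64 by its mean over all samples, with 15.1 ± 1.36 FPKM in unstimulated and 47.2 ± 6.69 in stimulated cells.

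A few of the 64 genes were at or near 0. Eif4e1b, an eIF4E form of the germ line, and Eif2s3y, the Y-linked copy of the eIF2 gamma subunit gene, had 0 counts in all 16 samples, out of 484329487 counts in all. In a single sample, a count of 0 allows up to 3 counts, which is 0.0698 to 0.132 CPM depending on its depth, and this covers counting error only. Of other Y-linked genes, Ddx3y and Uty had 0 counts and Kdm5d had 1 count in the whole series, so Eif2s3y did not stand apart from them. The X-linked gene Xist had 15414 to 29917 counts in each sample, and the X-linked copy Eif2s3x had 3934 to 12237. Eef1a2, the eEF1A form of muscle and neurons, had 2 counts in the whole series. Eif4ebp3, a binding protein of eIF4E, had low counts in every group (0.265, 0.499, 0.507 and 0.241 CPM in unstimulated samples and 0.503, 0.257, 0.0808 and 0.422 in stimulated samples). It shares 67.3% of its exon bases with the protein-coding gene AC115631.1 on its own strand. Of its 100-base stretches, 62.8% occur in other annotated genes, so its level is uncertain. Eif4e1b, Eif2s3y and Eef1a2 did not pass the filter on low counts. Hence 61 of the 64 genes passed it in most comparisons, and 59 did for PGE2 in unstimulated cells, where Eif4ebp3 and Eef1akmt3 dropped out.

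**Figure D1:**
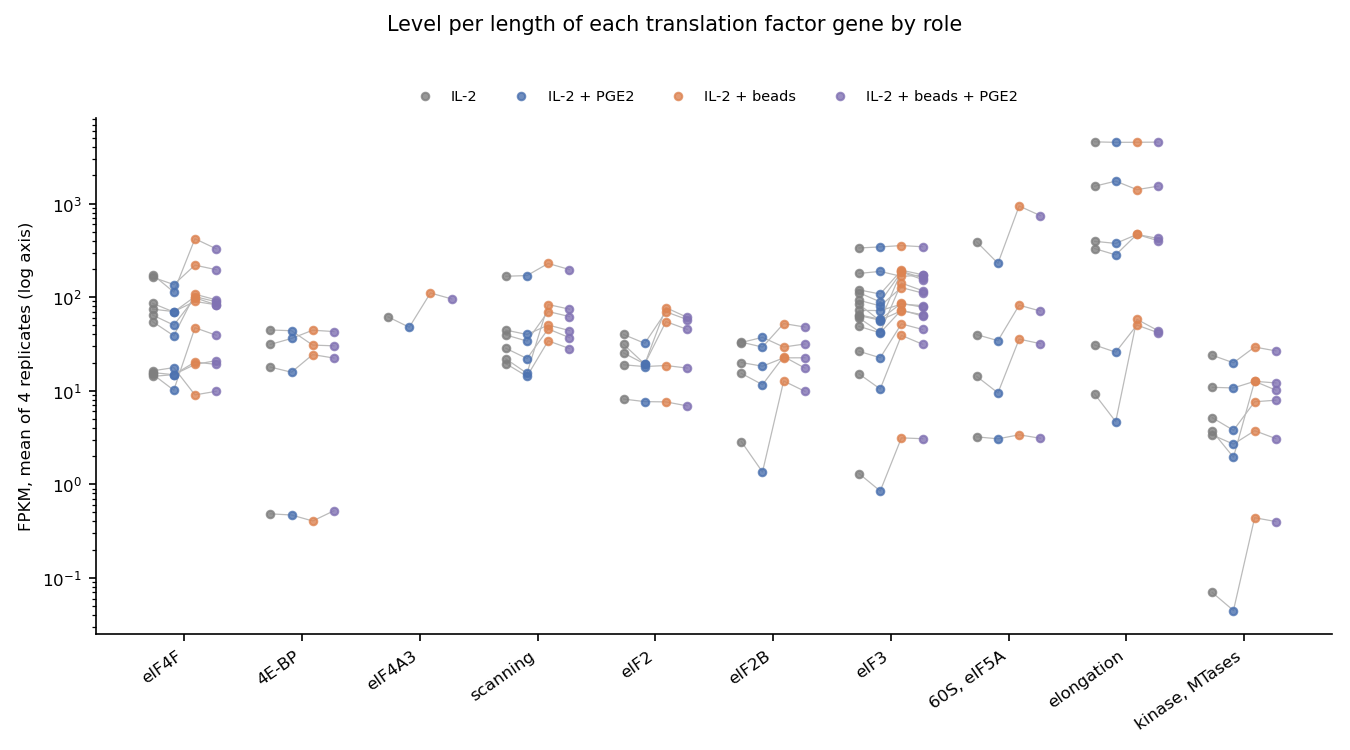
Mean FPKM of 4 replicates (log axis) for each translation factor gene above 0.1 FPKM on average, by role of the product. Each gene has 4 points, 1 for each group, joined by a line. Eef1a1 and Eef2 stood at the top of the elongation column with nearly level lines, and in most other columns most lines dropped with PGE2 and rose with beads.

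Promoter sequences were searched next, because many of the genes moved together in the comparisons below. RefSeq start regions on GRCm38.p6 (250 bases before to 50 bases after each annotated start) were matched by symbol for 48 of the 64 genes. The search covered both strands for CACGTG, the E-box that MYC and other basic helix-loop-helix factors bind, and for TGACGTCA, the full cyclic AMP response element. In 13 of the 48 genes (27.1%) at least 1 window held the E-box, as did those of 11.8% of genes tested for stimulation and 8.09% of all genes with an entry. The windows of the members had a median GC content of 62.2%, those of tested genes 60.7% and those of all genes 52.7%. TGACGTCA was found in 1 of the 48 (2.08%), Eef2, against 3.73% of tested genes and 2.03% of all genes, and it lies just downstream of the start there, apart from the E-box. These shares are descriptions without a test, and a match is not a bound site. The following 250-base stretches upstream of the start are shown because their genes span the range of the stimulation response from no call to a large rise; the E-box is in capitals, and its position is counted from the first transcribed base as 0.
Eef2 (chr10:81176381-81176630, plus strand, E-box at −43): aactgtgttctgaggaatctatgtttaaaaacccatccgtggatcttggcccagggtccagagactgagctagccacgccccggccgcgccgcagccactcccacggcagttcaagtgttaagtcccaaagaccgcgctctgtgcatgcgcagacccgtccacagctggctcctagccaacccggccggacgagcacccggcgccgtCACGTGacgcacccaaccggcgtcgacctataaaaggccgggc
Eif3f (chr7:108934165-108934414, plus strand, E-box at −68): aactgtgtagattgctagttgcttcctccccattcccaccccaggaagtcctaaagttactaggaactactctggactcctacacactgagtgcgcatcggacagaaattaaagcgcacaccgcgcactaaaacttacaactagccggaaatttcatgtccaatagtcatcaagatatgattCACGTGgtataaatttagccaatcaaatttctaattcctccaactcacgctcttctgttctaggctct
Eif5a2 (chr3:28781027-28781276, plus strand, 2 E-boxes): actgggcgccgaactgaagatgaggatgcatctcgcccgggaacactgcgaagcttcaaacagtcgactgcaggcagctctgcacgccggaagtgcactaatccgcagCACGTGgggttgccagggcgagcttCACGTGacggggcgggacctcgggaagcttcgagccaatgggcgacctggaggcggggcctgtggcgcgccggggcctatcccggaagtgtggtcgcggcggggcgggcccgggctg
Eif4a1 (chr11:69672424-69672673, minus strand, E-box at −189): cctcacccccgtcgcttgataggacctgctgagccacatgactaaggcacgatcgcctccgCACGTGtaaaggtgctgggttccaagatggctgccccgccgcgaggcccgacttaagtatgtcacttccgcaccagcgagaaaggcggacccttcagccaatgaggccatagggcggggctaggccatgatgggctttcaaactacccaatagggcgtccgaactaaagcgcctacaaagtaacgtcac
Eef1akmt4 (chr16:20611351-20611600, plus strand, E-box at −92): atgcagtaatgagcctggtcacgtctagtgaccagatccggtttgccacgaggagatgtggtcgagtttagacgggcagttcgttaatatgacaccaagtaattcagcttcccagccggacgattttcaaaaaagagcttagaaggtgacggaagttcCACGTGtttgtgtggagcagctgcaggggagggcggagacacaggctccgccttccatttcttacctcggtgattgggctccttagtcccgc

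A further search was for a TOP-like run at the start, a C followed by at least 4 pyrimidines within 5 bases of the annotated start on the sense strand. Terminal oligopyrimidine (TOP) runs mark messenger RNAs of ribosomal proteins and several translation factors whose translation mTORC1 controls. The run was found in 11 of 48 genes (22.9%), and in 24% of tested genes and 21.2% of all genes, so that its share among the members was near that of genes at large. Since the annotated start decides this search, 4 windows of 30 bases around it are shown, with the run in capitals.
Eef1a1 (chr9:78481705-78481734, minus strand): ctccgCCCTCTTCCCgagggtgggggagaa
Eif3f (chr7:108934405-108934434, plus strand): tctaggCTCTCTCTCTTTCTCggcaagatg
Eif3b (chr5:140419295-140419324, plus strand): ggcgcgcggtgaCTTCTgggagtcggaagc
Eif2b5 (chr16:20498807-20498836, plus strand): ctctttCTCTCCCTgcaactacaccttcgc

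Next, the response to bead stimulation without PGE2 was examined. Most translation factor genes rose, led by genes of low or moderate level, while the 2 most abundant ones, Eef1a1 and Eef2, had log2 fold changes of −0.029 and −0.14 and were not called. Of 61 genes tested, 46 rose and 3 fell at an adjusted p below 0.05 (edgeR quasi-likelihood test, Benjamini-Hochberg adjustment over all genes tested). Over all 14205 genes tested, 31.7% were called higher and 34.8% lower. The median log2 fold change of the 61 was 0.55, and that of all genes −0.03. A fold change of at least 2 was reached by 16 of those that rose (11.5% of all genes were called higher at that size) and by none of those that fell. In 46 of the 61, every stimulated sample lay above every unstimulated one, which was the case for 30.4% of all genes. Samples of the same replicate number were also treated as pairs, although the sources used here do not state a pairing. With the number as a block, 49 rose and 5 fell (34.8% and 37.5% of all genes). The added calls were Eef1akmt2, Eif2b4 and Eif3e higher and Eef2 and Eif3f lower.

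The largest rise was in Eef1e1, which encodes a scaffold protein of the multi-tRNA synthetase complex. It stood at 33.6, 31.5, 27.1 and 34.5 CPM in unstimulated samples 1 to 4 and at 235, 207, 187 and 165 CPM in stimulated samples, without overlap. Its log2 fold change was 2.64 ± 0.12 (SE), with an adjusted p of 1.12e-08. Eif2b3, the gamma subunit of eIF2B, rose from 20.1, 19.6, 16.8 and 22 to 104, 90.4, 78.4 and 75.4 CPM (log2 fold change 2.14 ± 0.12, adjusted p = 2.80e-08). Here too, the lowest stimulated sample was far above the highest unstimulated one. Eef1akmt3, a lysine methyltransferase of eEF1A, had 0.221, 0.166, 0.169 and 0.241 CPM in unstimulated and 1.48, 1.21, 1.01 and 1.31 in stimulated samples, with at most 56 counts in a sample, and a log2 fold change of 2.63 ± 0.29 (adjusted p = 4.55e-06). It shares 3.68% of its exon bases with Mettl1, which had a mean of 36.2 CPM against 0.680 CPM for Eef1akmt3 and a log2 fold change of 1.96 in the same comparison. The strand setting of the counting was not given, so reads of the pair cannot be told apart with certainty.

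The start codon factor Eif1a and its X-linked homologue Eif1ax both rose. Eif1a went from 64.4, 67.1, 55.7 and 78.4 to 289, 258, 230.5 and 231 CPM (log2 fold change 1.91 ± 0.11), and Eif1ax had a log2 fold change of 0.79 ± 0.088. Among the other genes grouped under this role, Eif5, the GTPase activator of eIF2, changed by 0.82 ± 0.10 and Eif1 by 0.44 ± 0.09 on the log2 scale. All 6 of the group, in which Eif1ad was counted, were called higher. The call of Eif1b was near the threshold (adjusted p = 0.0489) and was lost with upper-quartile factors (0.324). In the FPKM ratio, Eif1a stood at 1.12 ± 0.0935 times Eif1ax in unstimulated cells and at 2.44 ± 0.0565 times in stimulated cells.

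Within eIF4F and its inhibitors, homologous genes differed in direction. Eif4e was 89.9, 94.3, 88.7 and 108 CPM in unstimulated and 342, 309, 279 and 259 CPM in stimulated samples (log2 fold change 1.63 ± 0.10, adjusted p = 5.65e-08). Eif4e2, an eIF4E homologue linked to repression of messenger RNAs, rose as well (0.36 ± 0.09), with 115 to 136 CPM in unstimulated and 145 to 184 CPM in stimulated samples. Eif4e3, another homologue, fell from 38.7, 43.5, 40.9 and 49.5 to 19.7, 21.9, 25.1 and 29.1 CPM (−0.87 ± 0.11, adjusted p = 2.10e-05). No stimulated sample of Eif4e3 reached an unstimulated one. Of the binding proteins that keep eIF4E from eIF4G, Eif4ebp2 fell from 305, 277, 259.5 and 243 to 194, 181, 181 and 191 CPM (−0.55 ± 0.077, adjusted p = 3.87e-05), whereas Eif4ebp1 rose from 66.6, 67.5, 79.2 and 75.6 to 99.3, 93.8, 111 and 106 CPM (0.49 ± 0.08). Eif4ebp3 had a log2 fold change of −0.24 ± 0.47, within its error at these counts. The FPKM ratio of Eif4e to Eif4ebp2 was 0.342 ± 0.0601 in unstimulated cells (range 0.284 to 0.426) and 1.53 ± 0.176 in stimulated cells (range 1.30 to 1.70), without overlap. As this ratio joins a gene that rose to one that fell, it adds no separate support. In unstimulated and stimulated cells, Eif4ebp1 stood at 31.3 ± 2.54 and 44.4 ± 2.59 FPKM, and Eif4ebp2 at 44.6 ± 4.51 and 30.8 ± 1.39. The binding protein genes and Eif4enif1, a transporter of eIF4E, summed to 464 ± 18.7 and 453 ± 13.9 CPM.

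The helicase gene Eif4a1 rose from 829, 829.9, 717 and 805 to 2354, 1967, 1724 and 1620 CPM (1.26 ± 0.12) and its homologue Eif4a2 from 453, 507, 464 and 509 to 548, 585, 554 and 588 CPM (0.22 ± 0.07, adjusted p = 0.0135). Each of the pair was without overlap, but the sizes were far apart. With upper-quartile factors the adjusted p of Eif4a2 was 0.124, and without a filter on low counts 0.0501. Of the scaffolds, Eif4g1 rose from 442, 450.3, 371 and 419 to 916, 891, 750.1 and 743 CPM (0.96 ± 0.10), as did Eif4g2, which drives initiation without eIF4E (0.60 ± 0.10), and Eif4g3 (0.41 ± 0.068). Eif4g2 had 765, 715, 590.5 and 687 CPM in unstimulated and 1198, 1098, 917 and 995 CPM in stimulated samples, and Eif4g3 163, 170.2, 169 and 159.7 and 203, 235, 230.1 and 221 CPM. All 10 tested genes of eIF4F were called, 9 higher and 1 lower. Reads of Eif4a1 are less certain than those of most members because 22.6% of the 100-base stretches of its transcripts also occur in other annotated genes. The same limit holds for Eif2s3x (33.7%) and Eef1g (32.4%), whose changes are given below.

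The 5 subunits of eIF2B ranged from −0.17 to 2.14 in log2 fold change. Eif2b3 was called with the large rise given above, Eif2b5, the catalytic subunit, rose by 0.65 ± 0.076 and Eif2b1 by 0.58 ± 0.072, whereas Eif2b4 was not called (0.15 ± 0.069, adjusted p = 0.0673, and 0.0289 with the block). Eif2b2 was called lower, at 69.2, 62.5, 67.1 and 61.1 CPM in unstimulated and 61.2, 55.3, 57.6 and 58.5 CPM in stimulated samples (−0.17 ± 0.069, adjusted p = 0.0423). These groups overlapped, and the call was lost under most of the alternatives, including DESeq2 (adjusted p = 0.194), RLE factors (0.111) and the loss of stimulated replicates 2, 3 or 4 or of unstimulated replicates 1 or 3. In FPKM, Eif2b3 was the lowest of the 5 subunits in every group, and the highest subunit exceeded it 11.6-fold in unstimulated, 27.5-fold in unstimulated PGE2-treated, 4.11-fold in stimulated and 4.87-fold in stimulated PGE2-treated cells.

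Of 14 eIF3 genes, 11 rose and none fell, with a median log2 fold change of 0.63. The largest values were those of Eif3j1 (1.36 ± 0.12), Eif3j2 (1.25 ± 0.15), Eif3g (1.23 ± 0.12) and Eif3b (1.16 ± 0.088), and the smallest those of Eif3f (−0.12 ± 0.081) and Eif3h (0.073 ± 0.088). Eif3h was the highest eIF3 gene in FPKM in all 4 groups. Eif3j2 has 84.0% and Eif3j1 33.4% of their 100-base stretches in common with other annotated genes, so how reads were split between them is uncertain. All 3 expressed genes of the eIF2 trimer rose, with log2 fold changes of 1.29 ± 0.10 for Eif2s1, the subunit that stress kinases phosphorylate, 1.10 ± 0.085 for Eif2s2 and 0.79 ± 0.10 for Eif2s3x. Eif2a and Eif2d, which bring initiator tRNA without eIF2, were not called (−0.04 ± 0.069 and −0.12 ± 0.07).

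Eif5b (1.31 ± 0.11), Eif6, which keeps free large subunits from joining (1.03 ± 0.11), and Eif5a (1.26 ± 0.11) rose at least 2-fold. Eif5a went from 1006, 942, 924 and 1027 to 2824, 2443, 2186 and 1960 CPM, while its homologue Eif5a2 was at 14.9 to 18.4 and 14.7 to 19.9 CPM (0.062 ± 0.11, adjusted p = 0.637). The 95% interval of the Eif5a2 difference was −0.17 to 0.30 on the log2 scale. For elongation, Eef1d (0.69 ± 0.084), Eef1g (0.49 ± 0.079) and Eef1b2 (0.23 ± 0.082), the subunits that recharge eEF1A, were called higher. Eef1a1 stood at 12042, 11920, 12114 and 11953 CPM in unstimulated and 12150, 11227, 12281 and 11874 CPM in stimulated samples (−0.029 ± 0.072, 95% interval −0.19 to 0.13), and the sign of this small value turned with RLE factors. Eef2 was at 5391, 5251, 5737 and 5088 and 4706, 4748, 5225 and 5079 CPM (−0.14 ± 0.075, adjusted p = 0.132), and was called lower with upper-quartile factors (−0.23) and with the replicate block (adjusted p = 0.0162). Without Eef1a1 and Eef2, the summed level of the other 62 genes was 14241 ± 520 CPM in unstimulated and 22790 ± 2105 CPM in stimulated cells, while the sum of Eef1a1, Eef1a2, Eef1b2, Eef1d, Eef1e1, Eef1g and Eef2 was 19576 ± 350 and 19891 ± 693 CPM. With raw library sizes, the first sum was 14814 and 21125 and the second 20373 and 18483 CPM, so the direction of the second depended on the scaling. Eef1a1 took 1.20% to 1.28% of raw counts in unstimulated and 1.05% to 1.15% in stimulated samples.

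The promoters shown above belong both to genes that rose and to genes that were not called. Genes with an E-box had a median log2 fold change of 0.26 (n = 13, range −0.14 to 1.77) and matched genes without it 0.55 (n = 33, range −0.55 to 2.64). Eef2, Eif3f and Eif5a2 carried the E-box and were not called without the block, and Eif4a1 and Eef1akmt4 carried it and rose. Genes with a TOP-like run had a median of 0.54 (n = 10) and those without 0.50 (n = 36). These medians leave out the 16 genes without a matched window, among them Eef1akmt3, Eif2b3, Eif1a and Eif4e3, whose large changes are given above.

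**Figure D2:**
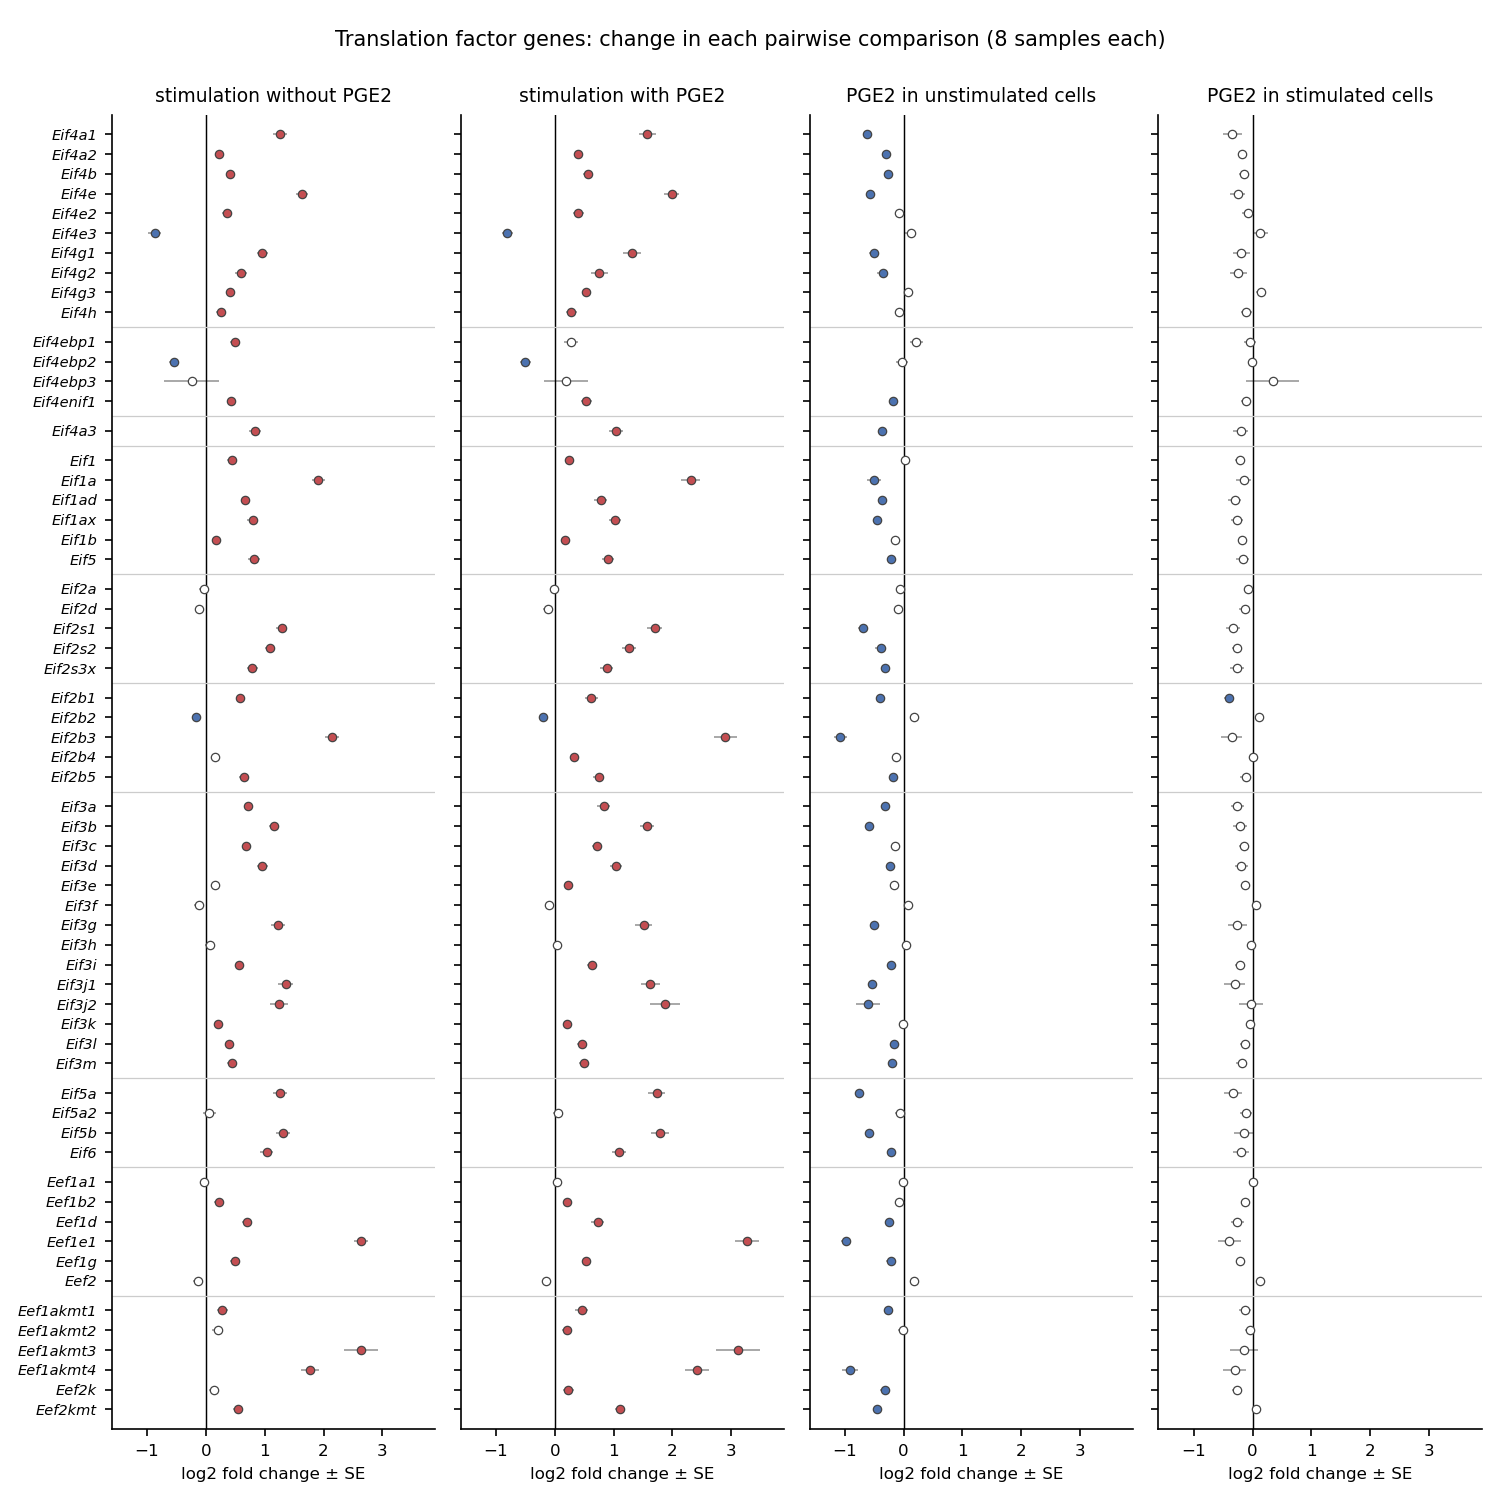
Log2 fold change with its SE (x axes) of each tested translation factor gene, ordered by role, in the 4 pairwise comparisons of 8 samples. Filled points were called at an adjusted p below 0.05, red higher and blue lower, and open points were not called. With beads 46 and 49 genes were called higher, PGE2 alone gave 37 lower calls, and in stimulated cells Eif2b1 was the single PGE2 call among mostly negative values.

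The same comparison was then made within PGE2-treated cells. Of 61 genes, 49 rose and 3 fell, with 32.5% of all 14507 genes called higher and 31.7% lower. The median was 0.62 and that of all genes 0.0022, and 21 genes rose at least 2-fold (12.7% of all genes did). Eef1e1 rose from 16.2, 15.5, 15.3 and 16.3 to 196, 178, 127 and 100.1 CPM (3.27 ± 0.20, adjusted p = 1.19e-06). Eef1akmt3 (3.12 ± 0.38) and Eif2b3 (2.90 ± 0.19) followed, the latter from 8.68, 8.45, 8.57 and 11 to 88.1, 76.5, 56.1 and 49.5 CPM. The lower calls were again Eif4e3 (−0.81 ± 0.092), at 44, 44.5, 45 and 51.2 and 22.2, 27.3, 27.8 and 27.3 CPM, Eif4ebp2 (−0.50 ± 0.093), at 318, 266, 240.0 and 228 and 189, 182, 176 and 188 CPM, and Eif2b2 (−0.20 ± 0.075, adjusted p = 0.037). In these cells the Eif2b2 groups did not overlap, although the call was lost with DESeq2 (adjusted p = 0.0643) and without 3 of the 8 samples in turn, namely stimulated PGE2-treated replicates 2 and 4 and unstimulated PGE2-treated replicate 1. Between the responses without and with PGE2, which rest on separate samples, 59 of 61 genes had the same sign, and Pearson's r across the genes was 0.985 (Spearman's rho 0.978, n = 61 genes of the same libraries, a description without a test), against 0.940 over 13999 genes. Upper-quartile factors moved the median of all genes in both stimulation comparisons to −0.13, and the calls then were 41 higher and 6 lower in each.

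The question of what PGE2 changes was first addressed in unstimulated cells. Translation factor genes were lower with PGE2 throughout most roles, by amounts that were mostly well below 2-fold. Of 59 genes tested, 37 were called lower and none higher, against 15.5% lower and 12.9% higher among all 14505 genes. At an unadjusted p below 0.05 there were 43 genes, against 38.9% of all genes. The median log2 fold change was −0.22 and that of all genes −0.0010. In 37 of the 59, all PGE2-treated samples lay below all untreated ones, which was so for 16.8% of all genes, and in 1, Eef2, they lay above. Treated as pairs by replicate number, which the sources used here do not state, 41 genes were lower and 4 higher (24.2% and 23.6% of all genes). In this fit with the number as a block, the 4 were Eef2 (adjusted p = 0.00114), Eif2b2 (6.65e-04), Eif4ebp1 (5.97e-04) and Eif4e3 (0.0362).

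Eif2b3 alone of the 59 fell by at least 2-fold, as did 1.92% of all genes. It had 20.1, 19.6, 16.8 and 22 CPM without and 8.68, 8.45, 8.57 and 11 CPM with PGE2 (−1.07 ± 0.11, adjusted p = 5.65e-05). Eef1e1 fell from 33.6, 31.5, 27.1 and 34.5 to 16.2, 15.5, 15.3 and 16.3 CPM (−0.98 ± 0.081, adjusted p = 1.17e-05). Eef1akmt4, another methyltransferase of eEF1A, fell from 7.54, 5.99, 5.97 and 5.6 to 3.23, 2.93, 3.17 and 3.72 CPM (−0.92 ± 0.14). In each of the 3 genes, the treated samples lay apart from the untreated ones. Eef1akmt4 shares 8.86% of its exon bases with Alg3, which had a mean of 28.4 CPM against 12 CPM and itself changed by −0.71 on the log2 scale. On its own strand, Eef1akmt4 shares 30.7% of its exon bases with the protein-coding gene Gm49333. Of its 100-base stretches, 24.8% occur in other annotated genes.

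Next in size were Eif5a, at 1006, 942, 924 and 1027 CPM without and 591, 548, 501 and 634 CPM with PGE2 (−0.76 ± 0.074), Eif2s1 (−0.70 ± 0.077) and Eif4a1, at 503, 499, 483 and 559 CPM with PGE2 (−0.62 ± 0.069). Eif4e fell to 58.6, 61.5, 63.2 and 69.7 CPM (−0.57 ± 0.08, adjusted p = 3.53e-04) and Eif4g1 to 343, 289.5, 245 and 296 CPM (−0.50 ± 0.089). Their homologues Eif4e2 (−0.075 ± 0.06), Eif4e3 (0.12 ± 0.086), Eif4g3 (0.066 ± 0.051) and Eif5a2 (−0.064 ± 0.081) were not called, although Eif4e3 was with the block, nor were Eif4ebp1 (0.22 ± 0.11) and Eif4ebp2 (−0.026 ± 0.10). Of the other homologues, Eif4a2 was called with −0.31 ± 0.066 and Eif4g2 with −0.36 ± 0.096 (adjusted p = 0.0158). The groups of Eif4g2 overlapped, and its adjusted p reached 0.0966 among the alternatives. The FPKM ratio of Eif4e to Eif4e3 was 0.925 ± 0.0324 without (range 0.907 to 0.973) and 0.574 ± 0.0128 with PGE2 (range 0.558 to 0.588).

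By role, 6 of 10 eIF4F genes, 9 of 14 eIF3 genes, 3 of 5 genes of eIF2 and the initiator tRNA carriers, 3 of 5 eIF2B genes, 4 of 6 scanning factors, 3 of 4 genes of subunit joining and eIF5A, 3 of 6 elongation factors and 4 of 5 genes of the elongation factor kinase and methyltransferases were called lower. Some of these calls depended on the scaling, as Eef1g (adjusted p 0.0450, then 0.0554 and 0.0730) and Eif5 (0.0463, then 0.0591 and 0.0530) were not called with RLE or upper-quartile factors, Eif3l was not with RLE (0.0576) and Eif3j2 was not with upper-quartile factors (0.0539). Within eIF3, Eif3j2 (−0.61 ± 0.20), Eif3b (−0.59 ± 0.066) and Eif3j1 (−0.53 ± 0.076) fell most, and Eif3f (0.073 ± 0.074), Eif3h (0.039 ± 0.073) and Eif3k (−0.0047 ± 0.063) were not called. The smallest changes that were called were those of Eif3l (−0.16 ± 0.051), Eif2b5 (−0.17 ± 0.053) and Eif4enif1, the nuclear transporter of eIF4E (−0.18 ± 0.052). Eif3l had 258, 249, 243 and 244 CPM without and 225, 213, 211 and 229 CPM with PGE2. For Eif2b5 the values were 87.6, 92.2, 89.4 and 91.9 against 79.9, 79.8, 73.3 and 82.8 CPM, and for Eif4enif1 116, 121, 119 and 123 against 112, 100.0, 98.6 and 106 CPM. These 3 calls were each lost when 1 of several libraries was left out. Eef1a1 was at 11612, 11559, 12073 and 11594 CPM with PGE2 (−0.015 ± 0.06), and Eef2 at 6201, 5809, 6180 and 5856 CPM (0.18 ± 0.064, adjusted p = 0.0526), called higher with RLE (0.0396) and upper-quartile (0.0469) factors. Genes with an E-box had a median of −0.32 (n = 13) and matched genes without it −0.21 (n = 33), with Eif2b3 in neither set.

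**Figure D3:**
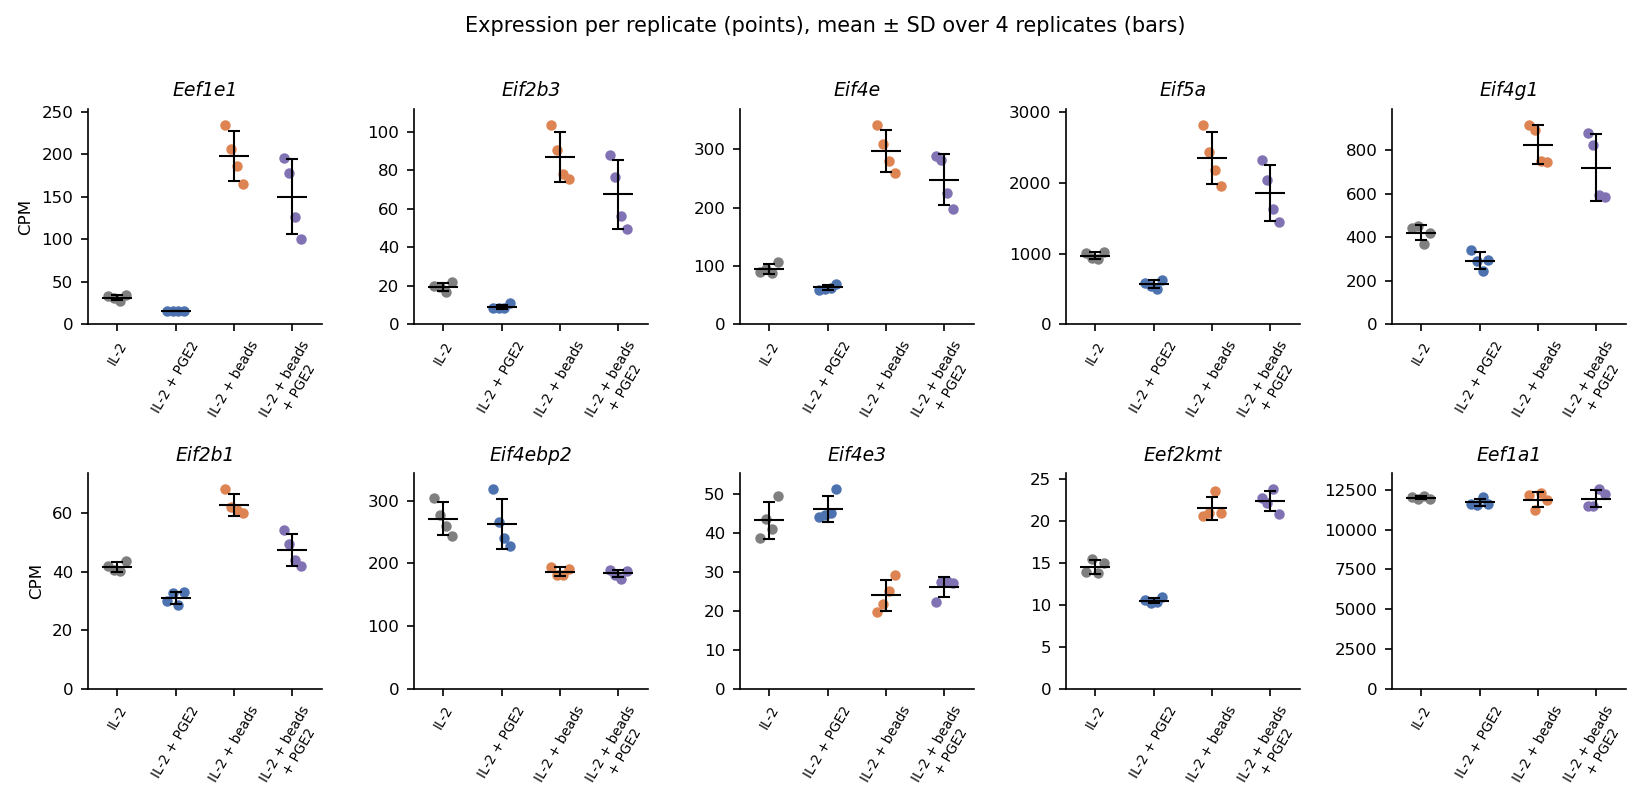
CPM (y axes, from 0) of 10 translation factor genes in each of 16 samples, with mean ± SD over the 4 replicates of each group. PGE2-treated samples lay below untreated ones in unstimulated cells for Eef1e1, Eif2b3, Eif4e, Eif5a, Eif4g1, Eif2b1 and Eef2kmt, and for Eif2b1 also in stimulated cells, whereas Eif4ebp2 and Eif4e3 were lower with beads and Eef1a1 was level.

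In stimulated cells, most translation factor genes had lower mean levels with PGE2, but hardly any passed the test. A single gene of 61, Eif2b1, the alpha subunit of eIF2B, was called lower and none higher, against 3.8% lower and 6.04% higher of all 13922 genes (9.84% in either direction). At an unadjusted p below 0.05 there were 14, against 27% of all genes. The CD8 marker sum also differed between these groups without overlap (2622 to 2704 against 2309 to 2495 CPM), and its part was not tested. The median log2 fold change was −0.15 (−0.0061 over all genes), 52 of the 61 values were negative, and in 7 genes all treated samples lay below all untreated ones, as was the case for 8.32% of all genes. Eif2b1 had 68.2, 62, 61.1 and 59.9 CPM without and 54.3, 49.6, 44 and 41.9 CPM with PGE2 (−0.40 ± 0.088, adjusted p = 0.0211). The groups did not overlap, yet the call was lost without stimulated replicates 1, 2 or 3 or stimulated PGE2-treated replicate 3 (adjusted p between 0.0512 and 0.0740).

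Replicates of the stimulated groups differed widely and together. Eef1e1, for instance, had 235, 207, 187 and 165 CPM in stimulated samples 1 to 4 and 196, 178, 127 and 100.1 CPM in stimulated PGE2-treated samples 1 to 4, so that the groups overlapped while every treated sample was below the untreated one of its number. The same held for the values by number of Eif5a (2824, 2443, 2186 and 1960 against 2325, 2040, 1632 and 1449 CPM), Eif4a1 (2354, 1967, 1724 and 1620 against 1832, 1700, 1309 and 1161 CPM) and Eif2b3 (104, 90.4, 78.4 and 75.4 against 88.1, 76.5, 56.1 and 49.5 CPM). In the data, samples of the same number deviated together from their group means in this comparison (correlation 0.193 to 0.441 in the 4 numbers). Samples of different numbers had correlations of −0.407 to 0.259, so the ranges overlapped. Positive values among the latter were those between numbers 1 and 2 (0.208 and 0.240) and between 3 and 4 (0.259 and 0.207). The blocked calls rest on pairing by number. With the replicate number as a block, 37 of the 61 genes were called lower and 3 higher, against 20.7% lower and 19.1% higher of all genes. Blocked adjusted p-values were 0.0015 for Eef1e1 (−0.39), 4.21e-04 for Eif5a (−0.33), 4.30e-04 for Eif4a1 (−0.34), 6.06e-04 for Eif2s1 (−0.33) and 0.00188 for Eif4e (−0.25). The 3 higher genes were Eef2 (0.13, 0.0369), Eif2b2 (0.12, 0.0433) and Eif4g3 (0.15, 0.024). Within numbers, 40 of the 61 genes were lower with PGE2 in all 4 and 3 were higher in all 4, and the median difference was −0.17, −0.098, −0.22 and −0.24 in numbers 1 to 4. What samples of a number share was not given in the sources used here.

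**Figure D4:**
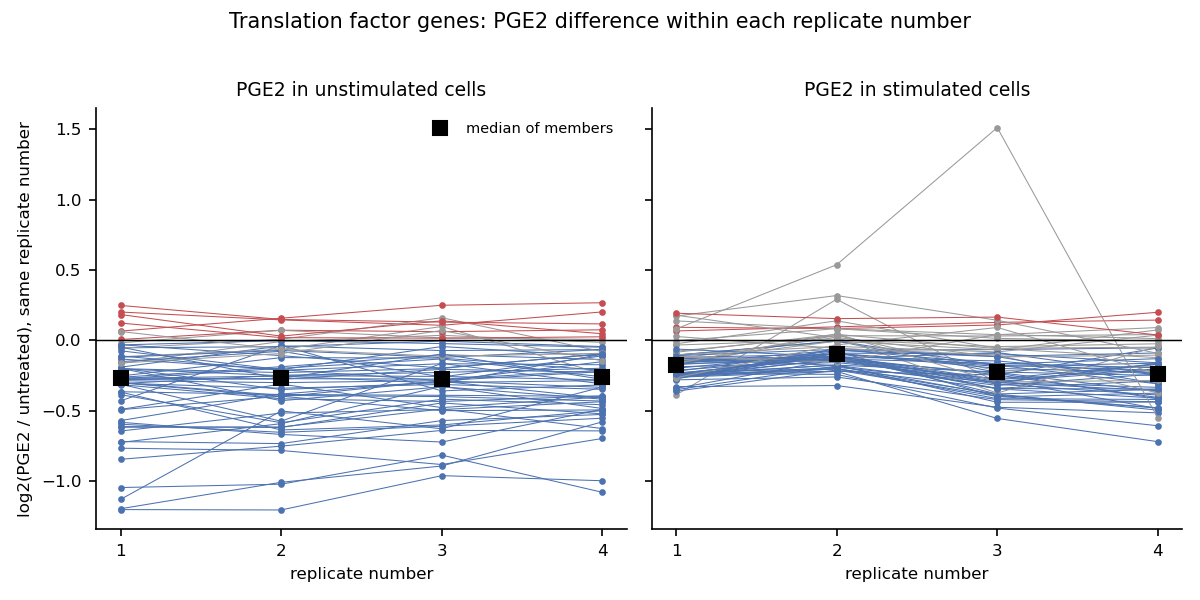
Log2 ratio of CPM with PGE2 to CPM without for the 2 samples that bear the same replicate number (y axis), by replicate number (x axis), in unstimulated cells (59 genes) and stimulated cells (61 genes). Each line is 1 gene, blue if below 0 in all 4 numbers, red if above 0 in all 4 and grey otherwise, and black squares are medians. The medians were negative in each number, and the single line far above 1 in stimulated cells is Eif4ebp3, which has few counts.

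The effects of PGE2 with and without stimulation come from separate samples. Across 59 genes Pearson's r between them was 0.740 (Spearman's rho 0.770, a description without a test, since genes share libraries), against 0.705 over 13571 genes, and 53 of the 59 had the same sign. Of the 37 genes called lower in unstimulated cells, 36 were negative in stimulated cells as well, with medians of −0.37 and −0.22. As these genes were picked by the first value, the smaller second one does not show a weaker effect. The difference of the effects was tested by the interaction over all 16 samples, and 1 of 61 genes was called, against 0.749% of 15096 genes. With this gene, 9 of the 61 had an unadjusted p below 0.05, as had 9.37% of all genes. For Eif2b3 the interaction was 0.73 ± 0.22 with an adjusted p of 0.194, and for Eef1e1 0.60 ± 0.23 with 0.369. The median interaction was 0.066 in the 61 genes and 0.051 in all genes.

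The gene called was Eef2kmt, a methyltransferase that modifies eEF2. It had 13.8, 15.4, 13.8 and 15 CPM in unstimulated and 10.6, 10.2, 10.3 and 10.9 CPM in unstimulated PGE2-treated samples (−0.45 ± 0.08, adjusted p = 0.00166), without overlap. In stimulated cells the values were 20.6, 20.9, 23.5 and 20.9 CPM without and 22.7, 22.1, 23.7 and 20.8 CPM with PGE2 (0.066 ± 0.08, adjusted p = 0.617), with overlap. The interaction was 0.53 ± 0.11 (adjusted p = 0.0256). It was not called without a filter on low counts (adjusted p = 0.134), and it was lost in 9 of the 16 fits that left out 1 sample (stimulated replicates 1, 2 and 4, stimulated PGE2-treated replicates 2 and 3, unstimulated replicates 2 and 4 and unstimulated PGE2-treated replicates 2 and 3). Eef2kmt shares 17.6% of its exon bases with Alg1, which had a mean of 21.7 CPM against 17.2 CPM and an interaction of 0.17.

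**Figure D5:**
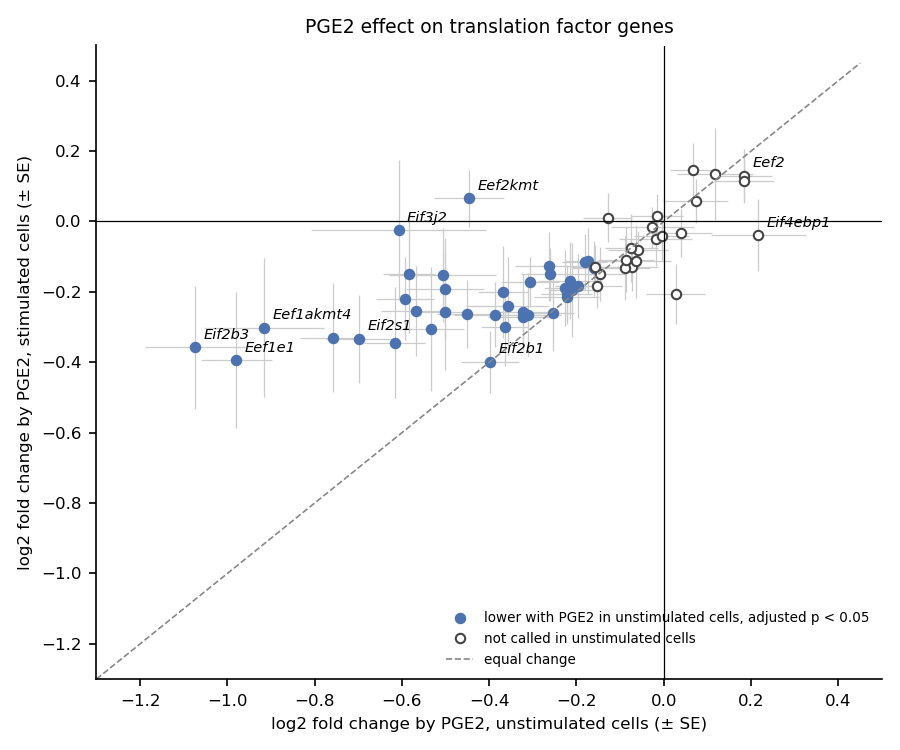
Log2 fold change by PGE2 in unstimulated cells (x axis) and in stimulated cells (y axis), each with its SE, for the 59 genes tested in both. Filled points were called lower in unstimulated cells, and the dashed line marks equal change. Most points lay in the lower left, the genes that fell most without beads were above the line, and Eef2kmt lay just above 0 in stimulated cells.

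Finally, 47 genes of the surrounding pathway were examined, namely kinases and phosphatase subunits of eIF2, components and targets of mTORC1, enzymes that modify eIF5A and eEF2, partners and inhibitors of the factors, and termination factors. With stimulation, 29 of 46 tested rose and 10 fell without PGE2 (31.7% and 34.8% of all genes), and 28 rose and 9 fell with it (32.5% and 31.7%). In unstimulated cells 7 of 46 were called higher and 17 lower with PGE2 (12.9% and 15.5% of all genes), and in stimulated cells 5 of 45 higher and 2 lower (6.04% and 3.8%). All 8 listed enzymes that make hypusine on eIF5A or diphthamide on eEF2 rose with stimulation in each setting. The hypusine enzymes Dhps (−0.016 ± 0.068) and Dohh (−0.027 ± 0.094) were not called with PGE2 alone. With PGE2 alone, 5 of the 8 were called lower, all of them enzymes of diphthamide. Of these, Dph1 fell from 8.5 ± 1.06 to 4.23 ± 0.48 CPM (−0.98 ± 0.13, adjusted p = 2.29e-04). Abce1, which splits ribosomes for a new round, fell from 174 ± 17.9 to 88 ± 8.4 CPM (−0.96 ± 0.085) and was the sole pathway gene called in the interaction (0.71 ± 0.14, adjusted p = 0.0272).

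Eif2ak3, Pdcd4, Mknk2 and Rptor were among the genes picked for the largest called changes with PGE2. Among the other genes of their sets, some moved as they did and others differed. Of the 6 kinases and phosphatase subunits of eIF2, 2 were called higher and none lower with PGE2 in unstimulated cells and 1 higher and none lower in stimulated cells. Eif2ak3 (PERK), a kinase that inactivates eIF2 under stress of the endoplasmic reticulum, was 108 ± 3.82 CPM in unstimulated, 187 ± 10.5 in unstimulated PGE2-treated, 29 ± 5.47 in stimulated and 53.1 ± 12 CPM in stimulated PGE2-treated cells. It was higher with PGE2 without stimulation (0.82 ± 0.056, adjusted p = 4.74e-06) and with it (0.88 ± 0.18, adjusted p = 0.0134), and it fell with stimulation (−1.91 ± 0.11, adjusted p = 2.96e-08). By contrast, the eIF2 kinase genes Eif2ak2 and Eif2ak4, chosen after their values were seen, rose with stimulation (1.27 ± 0.13 and 0.97 ± 0.11, adjusted p = 1.87e-06 and 6.56e-06) and were not called with PGE2 (0.14 and −0.039 in unstimulated, −0.11 and −0.032 in stimulated cells). Eif2ak1, the remaining kinase gene of the set, fell with stimulation as Eif2ak3 did, but by less (−0.26 ± 0.077, adjusted p = 0.00938). With PGE2 it was not called (0.042 in unstimulated and 0.12 in stimulated cells). Pdcd4, which binds and inhibits eIF4A, was 54.2 ± 7.8 CPM in stimulated and 81.8 ± 7.05 CPM in stimulated PGE2-treated cells (0.60 ± 0.11, adjusted p = 0.00809), with 0.35 ± 0.11 for PGE2 in unstimulated cells (adjusted p = 0.0298) and −1.47 ± 0.11 for stimulation (adjusted p = 1.45e-07). Of the 12 tested partners and inhibitors to which Pdcd4 belongs, 2 were higher and 7 lower with PGE2 in unstimulated cells, and 2 were higher and none lower in stimulated cells. Besides Pdcd4, the higher gene in both cases was Paip2 (0.40 ± 0.07, adjusted p = 0.00144, and 0.48 ± 0.10, adjusted p = 0.0205). Paip2 also fell with stimulation (−1.01 ± 0.081, adjusted p = 3.22e-07). Among mTORC1 components and kinases of initiation, 3 of 15 were called higher and 3 lower with PGE2 in unstimulated cells, and 2 of 14 higher and 1 lower in stimulated cells. The higher ones included Mknk2, a kinase of eIF4E (0.48 ± 0.11 in stimulated cells, adjusted p = 0.0258), and Rptor, the substrate-binding subunit of mTORC1 (0.92 ± 0.13 in unstimulated cells, adjusted p = 2.75e-04). Tsc2 was called higher too (0.23 ± 0.051 in unstimulated cells, adjusted p = 0.00696). The lower ones, also chosen after their values were seen, were Larp1 (−0.59 ± 0.08, adjusted p = 2.70e-04), Rps6kb1 (−0.30 ± 0.059, 0.00285) and Rheb (−0.20 ± 0.067, 0.0468) in unstimulated cells and Sesn2 (−0.43 ± 0.12, 0.0478) in stimulated cells.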

How the data were processed

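Poly(A)-selected libraries (NEBNext Ultra) of 16 samples were sequenced, and per the submitters' processing notes HISAT2 2.0.5, featureCounts 1.5.0-p3 and GRCm38 were used. The authors deposited raw counts per gene and FPKM values, which per the paper were calculated from read count and gene length. Across samples, FPKM did not follow the raw share of counts. Eef1a1 had 1.20% of counts and 4614 FPKM in unstimulated replicate 1, and 1.07% and 4748 FPKM in stimulated replicate 1. The FPKM values thus also carry a scaling between samples, which the sources used here do not describe. The strand setting was not given in the sources used here. From the counts, edgeR 4.0.16 (R 4.3.3) was run on all genes with filterByExpr (minimum count 10), TMM factors and the two-sided quasi-likelihood test with Benjamini-Hochberg adjustment, on the 8 samples of each pairwise comparison and on all 16 for the interaction. Genes with an adjusted p below 0.05 were called, and those that also reached a 2-fold change were counted apart. CPM used TMM factors of all 16 samples (0.880 to 1.09). SE was taken from the fold change and its F statistic. Alternatives were DESeq2 1.42.0, RLE and upper-quartile factors, other filters, limma 3.58.1 on log2(FPKM + 1) or log2(FPKM + 0.1), a replicate block, a joint fit of the 16 samples and the loss of each sample in turn. The scripts were tested on simulated data.

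Members, pathway and marker lists, motifs and the rule for per-sample values (in each comparison the 3 highest and 3 lowest called members, those called in the interaction, and sets of homologues) were chosen with earlier results of these data known, so that they are not independent support. Further members may be named. Of the pathway list, the plan was to name at most 3 called genes per PGE2 comparison, but more were named, some after their values were seen. Comparisons share groups: the unstimulated samples, for example, serve both stimulation and PGE2, so their calls are not independent. Same-numbered samples deviated together in all 4 numbers (correlation over 0.1) for stimulation without PGE2 (0.112 to 0.352), PGE2 in unstimulated cells (0.138 to 0.429) and PGE2 in stimulated cells (0.193 to 0.441), but in 2 of 4 for stimulation with PGE2 (0.0448 to 0.269), so the numbers were treated as pairs in the first 3. Different-numbered samples reached 0.134, 0.0969, 0.259 and 0.164 in the same order. The same-numbered range lay above the different-numbered one only for PGE2 in unstimulated cells. Promoters came from RefSeq (GRCm38.p6) and exon overlap and shared 100-base stretches from GENCODE M21. Of the 64 genes, 26 share exon bases with another gene and 12 share over 5% of their 100-base stretches with other genes (7 over 20%), which makes their counts less certain. Protein sequences were not used here.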

Additional observations from a re-analysis of the deposited data

Results flagged for a closer look

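In the per-sample values of the named genes, 100 groups of 4 replicates were examined for a sample that stands apart, defined as a gap to its nearest neighbour, relative to the range of the group, above Dixon's 95% critical value, and 6 had one, where chance gives about 1 in 20. In unstimulated PGE2-treated cells, replicate 3 had 12073 CPM of Eef1a1 (others 11559 to 11612) and 0.606 CPM of Eif4ebp3 (others 0.280 to 0.282), and replicate 4 had 11 CPM of Eif2b3 (others 8.45 to 8.68) and 51.2 CPM of Eif4e3 (others 44 to 45). In stimulated cells, replicate 3 had 23.5 CPM of Eef2kmt (others 20.6 to 20.9). In stimulated PGE2-treated cells, replicate 1 had 22.2 CPM of Eif4e3 (others 27.3 to 27.8).

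The effect of PGE2 on Eef2kmt differed between stimulated and unstimulated cells by 0.53 on the log2 scale (edgeR interaction over 16 samples, adjusted p = 0.0256). It was lower in 4 of 4 PGE2-treated unstimulated samples than in all untreated ones, and the treated and untreated values overlapped in stimulated cells.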

How the results depend on the processing

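Counts of called members for both stimulation comparisons and for PGE2 in unstimulated cells stayed within 1.5 times the reported count under every alternative run. They were 44 to 54 for stimulation without PGE2 (45 to 50 with 1 sample left out), 44 to 54 with PGE2 (46 to 51) and 31 to 45 for PGE2 in unstimulated cells (27 to 37). For PGE2 in stimulated cells the count of 1 became 3 with DESeq2, 8 in 1 fit of all 16 samples (all lower), 0 with limma on log2(FPKM + 1) without a filter, and 0 to 2 with 1 sample left out (2 without stimulated PGE2-treated replicate 1 or 2). For the interaction it became 0 without a filter on low counts and 0 to 2 with 1 sample left out, with 2 calls without stimulated PGE2-treated replicate 4. With the replicate block, the count for PGE2 in stimulated cells was 40, and the block gave 54, 51, 45 and 1 for stimulation without and with PGE2, PGE2 in unstimulated cells and the interaction. Of 46 calls of named genes, 36 held under every alternative and none changed sign. With raw library sizes, the summed level of the 64 genes was 32896 CPM in unstimulated, 31443 in unstimulated PGE2-treated, 36762 in stimulated and 35885 in stimulated PGE2-treated cells, and with TMM 31616, 29512, 39613 and 37048. The causes of these changes were not tested.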
